A study of Mus musculus with 32 samples.

Results

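Among the 17145 genes measured in mouse uterus, 10 were chosen because their expression was higher after diethylstilbestrol (DES), a synthetic estrogen, and because much of that difference was still present when the gene for estrogen receptor alpha, Esr1, had been conditionally deleted. They are Shisa2, Ppp2r2b, Ppp2r2c, Unc93a, Akr1c19, Myl7, Pcolce2, Asb4, Uox and Ifitm6. The choice used the levels in the Esr1 line, so every value from that line is a description of how the genes were picked and carries no test for them. No numeric threshold was stated for the choice. The animals were CD-1 females, and their uteri were taken on postnatal day 5. Each of 8 groups held 4 biological replicates, and each replicate had its own 1-colour Agilent array. The Esr1 line held conditional knockout (cKO) uteri after DES, wild-type uteri after DES, cKO uteri after vehicle and wild-type uteri after vehicle. The Foxa2 line held cKO and wild-type uteri, and so did the Foxo1 line, all after DES. Foxa2 and Foxo1 encode forkhead transcription factors. The driver of the deletions, the cells it reaches, the dose and days of DES and the age at dosing are not stated in the labels, and vehicle-treated uteri of the Foxa2 and Foxo1 lines were not analysed here.

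Estrogens act in the uterus largely through estrogen receptor alpha, a nuclear receptor that binds DNA at estrogen response elements and also at sites of other factors such as AP-1. Exposure of newborn mice to DES is a long-used model of lasting change in the uterus after early estrogen exposure. The chosen genes have unrelated roles. Ppp2r2b and Ppp2r2c encode regulatory B subunits of protein phosphatase 2A (PP2A). Uox encodes urate oxidase, a peroxisomal enzyme of purine breakdown known mainly from liver, and Akr1c19 encodes an aldo-keto reductase of the Akr1c family, whose members reduce steroids and other carbonyl compounds. Shisa2 belongs to a family first described in Xenopus, where Shisa holds back Wnt and FGF receptors in the endoplasmic reticulum. Unc93a encodes a membrane protein related to Unc93b1, which escorts Toll-like receptors. Ifitm6 belongs to the interferon-induced transmembrane proteins. Myl7 encodes the regulatory myosin light chain of the heart atrium, Pcolce2 an enhancer of procollagen C-proteinase, and Asb4 an ankyrin repeat protein with a SOCS box, through which such proteins join ubiquitin ligases.

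The start-site windows of 4 of the genes are printed because these genes form the pairs with the highest correlations of level across the DES-treated arrays. The pairs are Ppp2r2c with Uox and Unc93a with Akr1c19, as read by the brightest probe of each gene. With a second Akr1c19 probe, Unc93a had 0.72, below the 0.87 of Pcolce2 with Asb4. Each window runs 5′ to 3′ on the gene's strand, covers 250 bases before to 50 bases after the annotated start, and comes from RefSeq on build GRCm38.p6. The Ppp2r2c window is chr5:36868260-36868559 on the + strand, that of Uox chr3:146596899-146597198 on the + strand, that of Unc93a chr17:13131742-13132041 on the - strand and that of Akr1c19 chr13:4233490-4233789 on the + strand. Capitals mark matches to the motifs named after the sequences.
Ppp2r2c: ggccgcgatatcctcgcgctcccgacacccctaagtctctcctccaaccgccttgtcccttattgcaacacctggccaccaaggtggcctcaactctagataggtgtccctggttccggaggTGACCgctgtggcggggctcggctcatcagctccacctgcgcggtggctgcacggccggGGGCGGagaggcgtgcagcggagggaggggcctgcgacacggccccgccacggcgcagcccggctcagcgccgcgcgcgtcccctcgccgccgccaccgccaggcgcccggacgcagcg
Uox: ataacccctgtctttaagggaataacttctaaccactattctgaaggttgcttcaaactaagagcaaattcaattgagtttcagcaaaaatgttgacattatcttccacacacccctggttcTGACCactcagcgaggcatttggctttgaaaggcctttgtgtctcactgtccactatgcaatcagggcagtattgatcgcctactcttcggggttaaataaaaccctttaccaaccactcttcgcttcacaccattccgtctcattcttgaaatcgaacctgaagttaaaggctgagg
Unc93a: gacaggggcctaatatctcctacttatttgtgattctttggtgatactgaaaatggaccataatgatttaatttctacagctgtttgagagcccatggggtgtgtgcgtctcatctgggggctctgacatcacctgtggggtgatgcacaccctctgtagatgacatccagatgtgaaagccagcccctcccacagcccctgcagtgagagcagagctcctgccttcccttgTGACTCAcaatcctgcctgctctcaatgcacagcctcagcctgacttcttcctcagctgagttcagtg
Akr1c19: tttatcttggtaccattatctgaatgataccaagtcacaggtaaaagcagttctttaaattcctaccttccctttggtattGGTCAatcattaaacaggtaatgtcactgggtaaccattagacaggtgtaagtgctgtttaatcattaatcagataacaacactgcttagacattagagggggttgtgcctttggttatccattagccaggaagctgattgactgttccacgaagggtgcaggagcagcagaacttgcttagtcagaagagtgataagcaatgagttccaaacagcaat
Of the 10 genes, 9 had a window, and Asb4 had 2, which made 10 windows on 9 chromosomes among 32851 in all. Both strands were searched. The full palindrome of the estrogen response element, GGTCANNNTGACC, was in 0 of the 10 windows and in 0.07001% of all windows. Its half-site GGTCA, which is also part of the full motif, was in 4 windows (Ppp2r2c, Uox, Akr1c19 and Myl7) and in 40.48% of all windows, so the 4 of 10 lie close to the share over all windows. The half-site lay 128 bases before the start in both Ppp2r2c and Uox, and 169 bases before it in Akr1c19. The AP-1 motif TGANTCA was in the Unc93a window, 18 bases before the start, and in 7.808% of all windows. The forkhead motif TGTTTAC was in 0 of the 10 windows and in 3.65% of all, the GC box GGGCGG in 3 and in 35.66%, and the TATA box TATAAA in 1 (Ifitm6) and in 13.62%. These matches describe letters in short windows and say nothing of binding.

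A level here is the log2 of the deposited intensity minus the log2 of the array's 75th percentile, so a level of 0 sits at that percentile and a difference of 1 is a doubling. The 75th percentile itself ran from 697 to 1787 on 30 arrays, and a pair of arrays stood apart, Foxa2 wild type with DES, replicate 1, at 9024 and Esr1 wild type with vehicle, replicate 4, at 551. On that vehicle array Xist was at -2.35, while the other arrays of its group lay between 3.56 and 4.02. The targeted genes were checked first. Esr1 was at 0.09 to 0.46 in DES-treated cKO uteri, against 2.12 to 2.35 in DES-treated wild type, which is 25.8% of the wild-type signal (limma, adjusted p = 0.000391). After vehicle, Esr1 was at 2.43 to 2.82 in cKO and at 2.65 to 4.43 in wild type, a difference of -0.74 ± 0.40 (SE) that did not pass the test (limma, adjusted p = 0.33). The 4.43 came from the array of low Xist, and the other wild-type vehicle arrays lay between 2.65 and 3.24. So the probe read clearly less Esr1 in cKO uteri after DES, and overlapping levels after vehicle. Foxa2 was at -0.29 to 0.36 in Foxa2 cKO, against 1.47 to 3.58 in its wild type. The 1.47 came from the array with the 75th percentile of 9024, and the others of its group lay between 3.18 and 3.58. That array also had Esr1 at 5.00, against 2.02 to 2.25 on the others of its group. Foxo1 was at 1.12 to 1.33 in Foxo1 cKO, against 3.68 to 4.06 in its wild type. The labels do not say where the Esr1 probe lies relative to the deleted part. Of the genes that mark the uterus, Hoxa10 and Hoxa11 were above the 75th percentile on every array (levels of 0.79 to 4.94), while Hoxa13 was at -6.65 to -4.66 in the Esr1 line, near the 30th percentile of its arrays. Of all 10 uterine markers, 0 rose and 1 fell with DES in cKO (limma, 3 at an unadjusted p under 0.05), and 3 rose and 5 fell in wild type. The 1 that fell in cKO was Esr1, the deleted gene itself, which is also part of the sums that follow. Their summed linear level in units of the 75th percentile was 41.1 to 45.7 in DES-treated cKO, 21.9 to 25.8 in DES-treated wild type, 49.7 to 55.9 in cKO after vehicle and 52.3 to 80.2 in wild type after vehicle. The median of that last group was 55.8, far from its highest value.

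All 10 genes were higher after DES than after vehicle in both Esr1 genotypes. In cKO uteri the difference ran from 2.48 (Ppp2r2b, 5.59-fold) to 7.01 (Ppp2r2c, 129-fold) on the log2 scale, and in wild type from 3.02 (Akr1c19, 8.10-fold) to 9.54 (Uox, 744-fold). The median over the 10 was 3.64 in cKO and 4.45 in wild type, while the median over all genes was -0.04 in cKO and -0.16 in wild type. For each of the 10, every DES array lay above every vehicle array of its genotype, which was true of 13.9% of all genes in cKO and of 20.6% in wild type. Limma called 6.39% of all genes higher with DES in cKO and 21.5% in wild type. The genes were picked for this, and nothing is read from the count. In whole uteri, more cells of a type and more RNA per cell cannot be told apart.

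**Figure D1:**
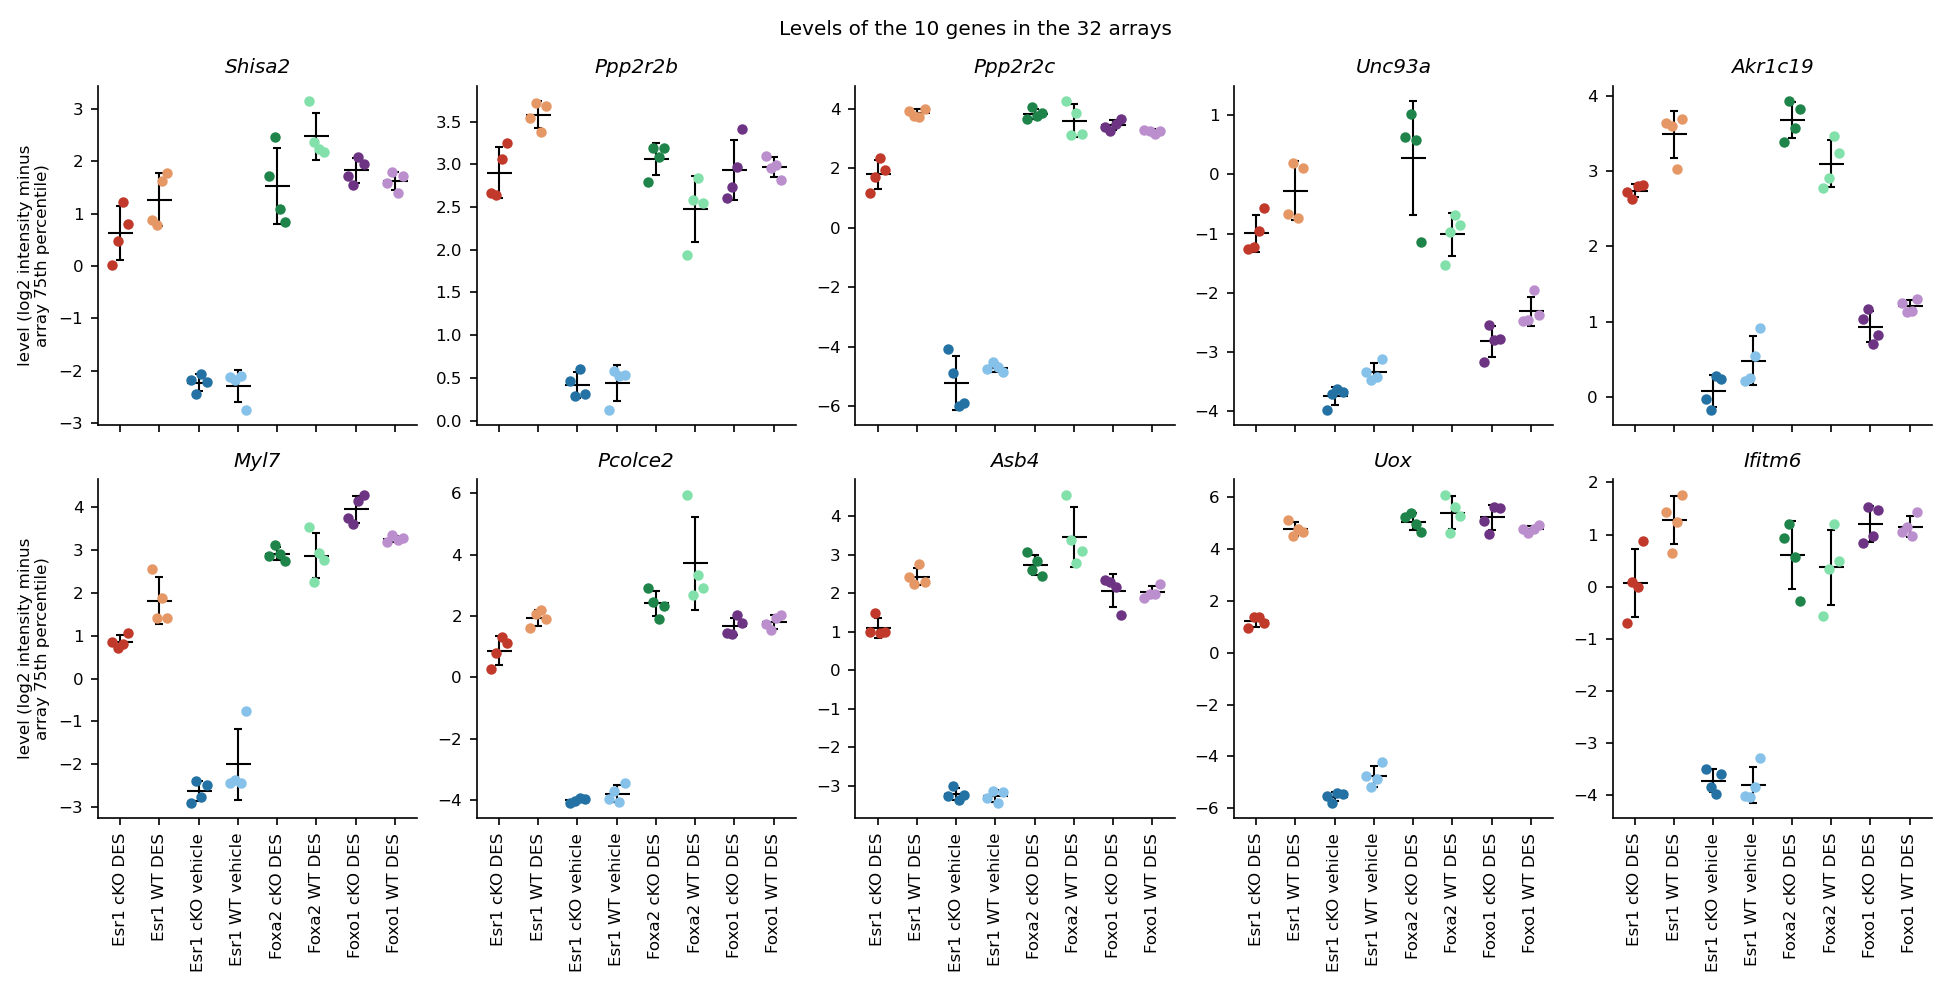
Level of each of the 10 genes on each of the 32 arrays (y axis, log2 intensity minus the array's 75th percentile, with its own range per panel), by group (x axis, WT for wild type); points are arrays, and black bars are the mean ± SD of 4. The DES-treated groups lie above both vehicle groups for all genes, except Unc93a and Akr1c19 in Foxo1 cKO. As read by the probe plotted, these overlap replicate 4 of Esr1 wild type after vehicle, the array of low Xist, and no other vehicle array. A second Akr1c19 probe did not overlap there.

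The PP2A subunit gene Ppp2r2c had the largest difference of the 10 in cKO uteri. Its levels were 1.18, 1.71, 2.35 and 1.93 in DES-treated cKO uteri, against 3.94, 3.77, 3.71 and 4.00 in DES-treated wild type. They were -4.10, -4.89, -6.0 and -5.90 in cKO after vehicle, against -4.77, -4.53, -4.68 and -4.86 in wild type after vehicle. The DES-treated cKO arrays thus lay far above all vehicle arrays and wholly below the DES-treated wild type. The vehicle levels were close to the 30th percentile of their arrays (means of -6.13 in cKO and -5.88 in wild type), although on no array under it, so the folds of 129 in cKO and 379 in wild type rest on dim vehicle signals. The difference was 7.01 in cKO and 8.57 in wild type, and cKO uteri held 23.9% of the wild-type DES signal.

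Ppp2r2b, the other B subunit, had a smaller difference. It was at 2.66, 2.64, 3.07 and 3.24 in DES-treated cKO uteri and at 3.54, 3.72, 3.38 and 3.68 in DES-treated wild type. After vehicle it was at 0.47, 0.29, 0.61 and 0.31 in cKO and at 0.13, 0.58, 0.53 and 0.53 in wild type. The vehicle groups overlapped, and the DES groups did not on this probe. On a second probe the DES groups overlapped, at -0.03 to 1.07 in cKO and 0.64 to 1.06 in wild type. The difference with DES was 2.48 in cKO and 3.14 in wild type, and the cKO signal after DES was 62.6% of the wild-type one.

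Uox had the largest difference in wild type and the lowest share of it in cKO. Its levels were 0.94, 1.37, 1.37 and 1.16 in DES-treated cKO uteri, against 5.13, 4.50, 4.79 and 4.66 in DES-treated wild type. After vehicle they were -5.53, -5.79, -5.43 and -5.47 in cKO, against -4.77, -5.20, -4.89 and -4.22 in wild type. Both pairs of groups were separate on this probe, with cKO lower each time. After vehicle the genotypes overlapped on a second, dim probe, with means of -6.14 in cKO and -7.61 in wild type. On the main probe the difference with DES was 6.76 in cKO (109-fold) and 9.54 in wild type (744-fold). As for Ppp2r2c, these values rest on dim vehicle signals, on average -5.55 in cKO and -4.77 in wild type, above the 30th percentile on every array. After DES, cKO uteri reached 8.47% of the wild-type DES signal. On the log2 scale 70.9% of the difference was kept, while on the linear scale most of the signal was absent. The same contrast between the scales held for Ppp2r2c, with 81.9% of the log2 difference kept.

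Akr1c19 kept 88.4% of its log2 difference, and its DES levels in cKO were tightly grouped. They were 2.73, 2.64, 2.80 and 2.82 in DES-treated cKO uteri and 3.65, 3.61, 3.03 and 3.70 in DES-treated wild type. After vehicle they were -0.03, -0.17, 0.28 and 0.23 in cKO and 0.21, 0.25, 0.54 and 0.92 in wild type. The DES groups did not overlap, and replicate 3 of the DES-treated wild type lay apart from the rest of its group. The difference was 2.67 in cKO and 3.02 in wild type, and cKO held 59.4% of the wild-type DES signal.

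Of the genes for membrane proteins, Shisa2 had the highest share of the wild-type DES signal in cKO, 64.3%. It was at 0.02, 0.47, 1.23 and 0.80 in DES-treated cKO uteri and at 0.88, 0.78, 1.62 and 1.77 in DES-treated wild type. After vehicle it was at -2.17, -2.45, -2.06 and -2.21 in cKO and at -2.13, -2.18, -2.11 and -2.74 in wild type. The genotypes overlapped under both treatments. The difference with DES was 2.85 in cKO and 3.55 in wild type.

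Unc93a kept 89.6% of its log2 difference. It was at -1.25, -1.22, -0.95 and -0.57 in DES-treated cKO uteri, against -0.67, 0.20, -0.73 and 0.10 in DES-treated wild type. After vehicle it was at -3.98, -3.71, -3.63 and -3.68 in cKO, against -3.34, -3.47, -3.43 and -3.12 in wild type. The DES groups overlapped, and the vehicle groups were separate, with cKO lower. The difference with DES was 2.75 in cKO and 3.07 in wild type, and the cKO signal after DES was 60.5% of the wild-type one.

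Ifitm6 had the largest spread of the 10 among DES-treated cKO uteri. It was at -0.69, 0.10, -0.01 and 0.88 in DES-treated cKO uteri (mean 0.07 ± 0.64, SD, n = 4) and at 1.44, 0.65, 1.25 and 1.77 in DES-treated wild type (mean 1.28 ± 0.47, SD, n = 4), so the genotypes overlapped. After vehicle it lay between -3.97 and -3.50 in cKO and between -4.04 and -3.30 in wild type. The difference with DES was 3.80 in cKO and 5.08 in wild type, and 74.8% of it was kept on the log2 scale.

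Myl7 kept 91.4% of its log2 difference, a share that rests on 1 vehicle array. Its levels were 0.86, 0.71, 0.80 and 1.06 in DES-treated cKO uteri, against 2.56, 1.42, 1.87 and 1.41 in DES-treated wild type. After vehicle they were -2.90, -2.39, -2.75 and -2.47 in cKO, against -2.43, -2.38, -2.43 and -0.76 in wild type. The DES groups were separate, and the vehicle groups overlapped. The highest vehicle value belongs to the array with the low Xist level, and without it the difference in wild type was 4.23 in place of 3.81, with 3.49 in cKO. The share kept was then 82.5%, below the 87.5% of Unc93a, which came first without that array. The cKO signal after DES was 51.5% of the wild-type one.

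Pcolce2 and Asb4 had nearly equal differences in wild type, 5.74 and 5.69, and smaller ones in cKO, 4.88 and 4.32. Pcolce2 was at 0.26, 0.79, 1.32 and 1.12 in DES-treated cKO uteri and at 1.60, 2.06, 2.21 and 1.90 in DES-treated wild type. Asb4 was at 0.98, 1.5, 0.96 and 0.99 in DES-treated cKO uteri and at 2.42, 2.25, 2.75 and 2.30 in DES-treated wild type. For both genes the DES groups of the genotypes did not overlap. After vehicle Pcolce2 lay between -4.09 and -3.94 in cKO and between -4.07 and -3.43 in wild type, and Asb4 between -3.36 and -3.0 in cKO and between -3.44 and -3.12 in wild type, so the vehicle groups of both overlapped. The cKO signal after DES was 47.6% of the wild-type one for Pcolce2 and 40.0% for Asb4.

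Deletion of Esr1 therefore left all 10 genes lower on average under DES. The cKO minus wild-type difference ran from -3.56 (Uox) to -0.64 (Shisa2), with a median of -1.01 against 0.03 over all genes, and for 7 of the 10 the cKO arrays lay wholly below the wild-type arrays, as for 23.2% of all genes. The others, Shisa2, Unc93a and Ifitm6, overlapped, and so did Ppp2r2b on a second probe. After vehicle, 7 of the 10 were lower in cKO on average, with a median of -0.31 against -0.07 over all genes. The arrays were separate for 2 of them, Uox and Unc93a, as for 9.59% of all genes in that direction, although Uox overlapped on a second, dim probe. These counts share their arrays with the choice of the genes.

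The share of the log2 difference kept was set against other genes with a strong response. In wild type, 409 genes were raised at least as much as Akr1c19, the lowest of the 10. Their median share kept was 39.5%, with quartiles of 18.5% and 53.8%, and that of the 10 ran from 70.9% to 91.4% with a median of 81.1%. Of the 409, 46 (11.2%) kept at least as much as Uox, and 36 of these were not among the 10. In cKO, 281 of the 409 (68.7%) were also called higher with DES by limma. The 10 are thus part of a larger upper tail and not the whole of it.

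**Figure D2:**
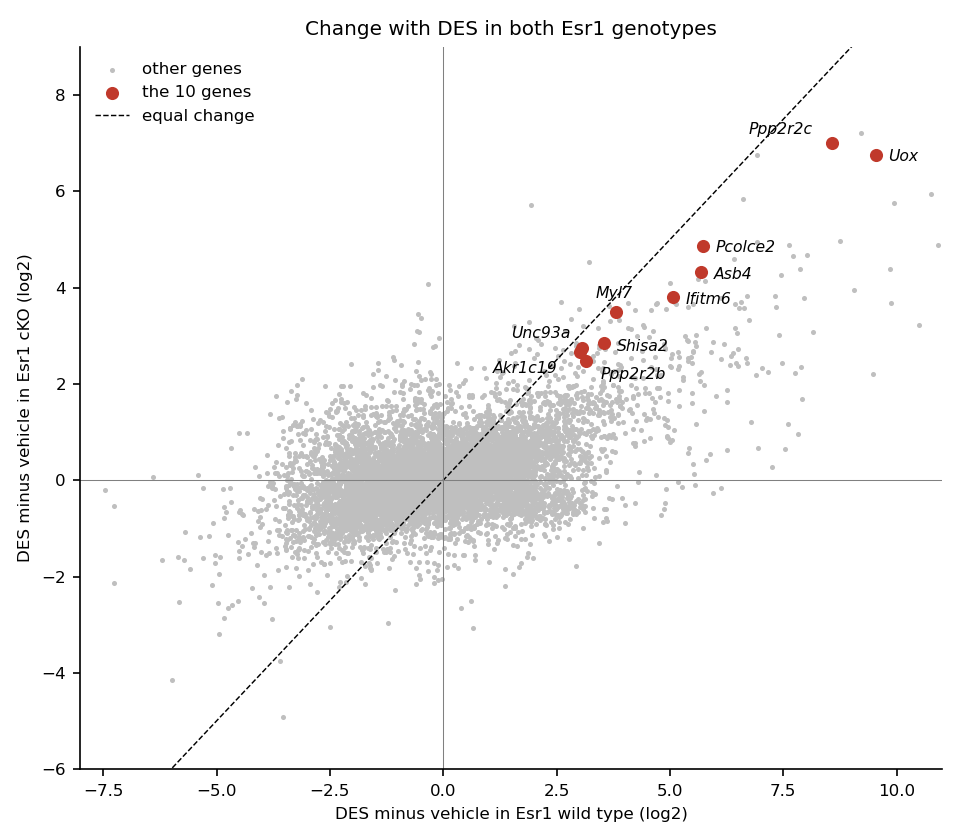
Difference between DES and vehicle (log2) in Esr1 wild type (x axis) and Esr1 cKO (y axis) for all 17145 genes; red points are the 10 genes, and the dashed line marks equal change. All 10 lie to the right of and below the line, from 3.02 to 9.54 in wild type and from 2.48 to 7.01 in cKO.

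**Figure D3:**
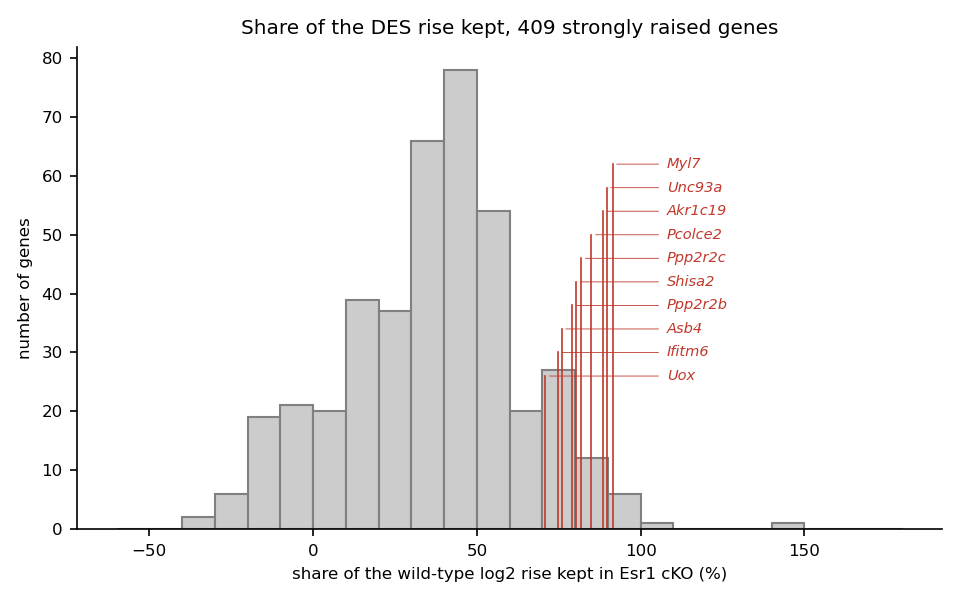
Number of genes (y axis) by the share of the wild-type log2 difference kept in Esr1 cKO (x axis, %), for the 409 genes raised at least as much as Akr1c19 in wild type; red lines mark the 10 genes, and their heights only separate the names. The 10 lie between 70.9% and 91.4%, above the median of 39.5%.

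Several of the 10 had a second probe, and these did not all give the same share. For Uox a second probe was under the 30th percentile on 3 of the 4 cKO vehicle arrays and on all 4 wild-type ones. It gave a difference of 5.70 in cKO and of at least 9.11 in wild type, and its fitted share kept was 52.6%. For Akr1c19 a second probe gave 2.44 in cKO and 3.37 in wild type (72.4% kept). For Asb4 a second probe was under the 30th percentile in all vehicle arrays of the line and gave at least 2.80 in cKO and at least 3.55 in wild type. Ppp2r2b had a second probe with 2.80 in cKO and 3.58 in wild type (78.3% kept), another that was under the 30th percentile on all vehicle arrays of the line and on average under it after DES, and one that did not pass the filter. In all, 15 of 16 probes of the 10 genes passed. The other genes had 1 probe each.

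Genes related to the 10 by family or pathway were tested with limma, with adjustment over all genes. Their lists were drawn up with earlier results of these data known, so the counts are not independent of them. With DES, limma called 8.98% of all genes in cKO and 51.8% in wild type in either direction, and for 27.3% the changes of the genotypes differed. Among 12 measured aldo-keto reductase genes besides Akr1c19, 3 rose with DES in cKO and 7 in wild type, and 0 fell in either. The 3 were Akr1c14, a hydroxysteroid dehydrogenase, and its relatives Akr1c12 and Akr1c13. Akr1c14 was at 0.97 to 1.31 in DES-treated cKO uteri and at -2.00 to -1.45 after vehicle, and at 3.37 to 3.74 in DES-treated wild type and at -2.44 to -1.52 after vehicle. It rose by 2.89 ± 0.24 in cKO (adjusted p = 5.92e-10) and by 5.40 ± 0.24 in wild type (adjusted p = 1.21e-16). Akr1c12 rose by 2.07 ± 0.20 in cKO and by 3.53 ± 0.20 in wild type, and Akr1c13 by 1.95 ± 0.16 in cKO and by 2.87 ± 0.16 in wild type (SE). The cKO rise minus the wild-type rise was negative for all 3, at -2.50, -1.46 and -0.92 on the log2 scale (limma, adjusted p = 2.64e-06, 0.000332 and 0.00363). Akr1c21 behaved otherwise, with -0.39 ± 0.63 in cKO (not called) and a rise of 3.72 ± 0.63 in wild type, where 1 of the vehicle arrays was under the 30th percentile. Akr1c19 and these 4 genes lie on chromosome 13, as do 8 of the 9 Akr1c genes measured, and the probes' part in reading more than 1 of these similar genes was not tested.

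Among 12 measured genes of purine breakdown and urate handling besides Uox, 3 rose and 1 fell in cKO, and 6 rose and 1 fell in wild type. Those that rose in cKO were Xdh, Ampd3 and Gda. Xdh, which makes the urate that Uox consumes, was at -1.80 to -0.81 in DES-treated cKO uteri and at -3.26 to -2.85 after vehicle, and at -0.22 to 0.80 in DES-treated wild type and at -3.51 to -3.31 after vehicle. It rose by 1.57 ± 0.28 in cKO (adjusted p = 0.000221) and by 3.68 ± 0.28 in wild type (adjusted p = 1.19e-11). Ampd3, an AMP deaminase, rose by 1.69 ± 0.49 in cKO and by 4.03 ± 0.49 in wild type. Gda, guanine deaminase, was under the 30th percentile on all vehicle arrays of the line and rose by at least 2.56 in wild type, while in cKO it was under that percentile on 3 of the 4 DES arrays too and no size is given. The rises of Xdh and Ampd3 were smaller in cKO (limma, adjusted p = 0.000201 and 0.0138). Slc2a9, a urate transporter, was not called in either genotype.

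The relatives of the other genes did not share their size of response. Of 20 further PP2A subunits and regulators, 0 were called by limma with DES in cKO, where 0 also had an unadjusted p under 0.05, and 3 rose and 3 fell in wild type, where the largest change was that of Ppp2r5d (-1.08 ± 0.22). Of 6 Shisa family genes, 0 were called by limma in cKO (1 at an unadjusted p under 0.05), and 1 rose and 3 fell in wild type, among them Shisa3 (-1.41 ± 0.27). Of 14 myosin light chain genes and kinases, 1 fell in cKO, and 1 rose and 4 fell in wild type. That 1 gene was Myl6b, with -0.64 ± 0.20 in cKO and -1.59 ± 0.20 in wild type. Of 17 Asb and ubiquitin ligase genes, 0 were called by limma in cKO (2 at an unadjusted p under 0.05), and 2 rose and 6 fell in wild type. Over all 17145 genes, 3361 had an unadjusted p under 0.05 in cKO.

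Among 11 genes for collagens and their processing, 3 rose and 0 fell in cKO, and 4 rose and 2 fell in wild type. Tll1, a procollagen C-proteinase of the kind that Pcolce proteins enhance, was at -3.35 to -1.83 in DES-treated cKO uteri and at -6.03 to -5.16 after vehicle. It rose by 2.83 ± 0.36 in cKO (adjusted p = 1.71e-06) and by 2.16 ± 0.36 in wild type (adjusted p = 1.29e-05), where 3 of the 4 vehicle arrays were under the 30th percentile. The difference between the rises did not pass the test (0.67 ± 0.51, adjusted p = 0.35). Lox, a lysyl oxidase that crosslinks collagen, rose by 2.10 ± 0.31 in wild type and was not called in cKO. Of 5 Ifitm genes, 2 rose and 1 fell in each genotype. Ifitm10 fell by 1.25 ± 0.36 in cKO and by 2.60 ± 0.36 in wild type, and Ifitm1 rose by 1.01 ± 0.19 in cKO and by 0.66 ± 0.19 in wild type. Unc93b1 rose by 0.54 ± 0.17 in cKO and by 1.46 ± 0.17 in wild type.

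**Figure D4:**
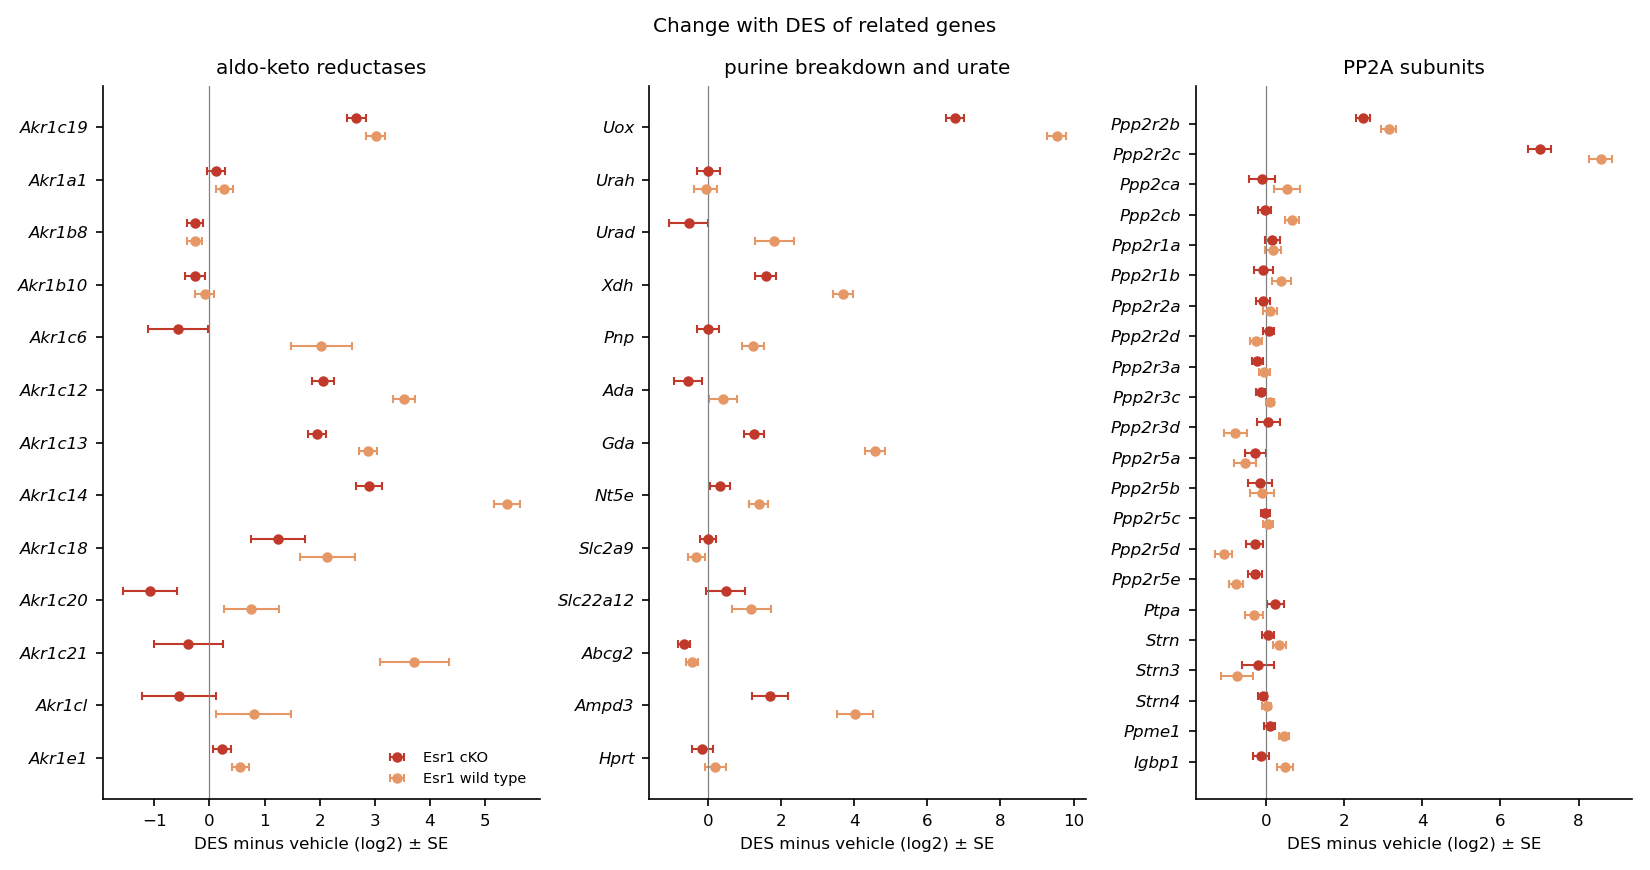
Difference between DES and vehicle (x axis, log2, ± SE of the fit over 32 arrays) for genes of 3 families (y axis), Esr1 cKO in red above Esr1 wild type in orange, with the chosen genes on the top rows. Uox and the PP2A genes Ppp2r2b and Ppp2r2c exceed their relatives in both genotypes, while Akr1c14 (5.40) exceeds Akr1c19 (3.02) in wild type; values of genes that were dim after vehicle are fitted and not bounds.

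Markers of cell types moved with DES as well. Of 10 epithelial markers, 3 rose in cKO and all 10 in wild type, and none was dim in any group. Their summed level (linear signal in units of the array's 75th percentile) was 183 to 249 in DES-treated cKO uteri, 334 to 401 in DES-treated wild type, 139 to 147 in cKO after vehicle and 145 to 247 in wild type after vehicle. The median of that last group was 152, far from its highest value. Of 6 macrophage markers, 5 rose in cKO and 6 in wild type, with sums of 18.9 to 40.1 in DES-treated cKO, 24.4 to 35.5 in DES-treated wild type, 11.1 to 15.6 in cKO after vehicle and 10.5 to 13.4 in wild type after vehicle. Of 8 neutrophil markers, 3 rose in cKO and 2 in wild type, with sums of 1.94 to 7.31 in DES-treated cKO, 4.10 to 8.92 in DES-treated wild type, 1.87 to 2.40 in cKO after vehicle and 1.88 to 7.72 in wild type after vehicle. Here too the last group had a median, 2.13, far from its highest value. The part of these cell types in the levels of the 10 genes was not tested. Of 10 stromal markers, 1 rose in cKO, and 1 rose and 4 fell in wild type. Of 10 markers of heart muscle, where Myl7 is best known, 0 were called by limma in cKO (2 at an unadjusted p under 0.05), and 1 rose and 5 fell in wild type. Of 7 liver markers, the tissue of Uox, 0 were called by limma in cKO (0 at an unadjusted p under 0.05), and 1 rose and 1 fell in wild type. Their summed level was 0.198 to 0.235 in DES-treated cKO and 0.26 to 0.415 in DES-treated wild type. Of 5 kidney tubule markers, 1 rose in cKO, and 1 rose and 4 fell in wild type.

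The Foxa2 and Foxo1 lines were not used in choosing the 10 genes, so comparisons among their own arrays allow tests. On every array of both lines, all of the 10 except Unc93a and Akr1c19 lay above every vehicle array of the Esr1 line. Those 2 overlapped the vehicle arrays in Foxo1 cKO only through Esr1 wild type with vehicle, replicate 4, the array of low Xist. That array was at -3.12 for Unc93a and 0.92 for Akr1c19, and the other vehicle arrays no higher than -3.34 and 0.54. For Akr1c19 the overlap held on its main probe alone. A second probe was at 1.38 to 1.91 in Foxo1 cKO and no higher than -0.42 on any vehicle array. Setting these lines against the Esr1 vehicle arrays is no test, since the choice used those arrays and neither line has vehicle arrays here. The share of all genes that lay so was not computed, and nothing is read from this comparison. Deletion of Foxa2 changed 1 of the 10 by limma (adjusted over all genes), against 2.21% of all genes called. Unc93a was at 0.64, 1.02, 0.58 and -1.13 in Foxa2 cKO uteri, against -1.52, -0.97, -0.69 and -0.86 in Foxa2 wild type. Of the cKO arrays 3 lay above all wild-type arrays and 1 lay among them. The change was 1.28 ± 0.30 (SE, adjusted p = 0.0194). The call was lost without Foxa2 wild-type replicate 1 (1.11, adjusted p = 0.0740), without cKO replicate 1, 2 or 3 (adjusted p = 0.0583, 0.107 and 0.0762), and when only the compared groups were fitted (limma, adjusted p = 0.821).

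The other genes did not pass in Foxa2 cKO, with adjusted p of 0.087 to 0.941. Pcolce2 was at 2.92, 2.47, 1.91 and 2.34 in Foxa2 cKO, against 5.96, 2.68, 3.34 and 2.93 in Foxa2 wild type, where the highest value is from the array with the 75th percentile of 9024. Its difference was -1.32 ± 0.41 (adjusted p = 0.0964) and -0.57 without that array. Shisa2 averaged 1.53 ± 0.73 in Foxa2 cKO and 2.48 ± 0.45 in Foxa2 wild type (SD, n = 4 each), a difference of -0.95 ± 0.29 (SE; limma, adjusted p = 0.0931). For Ifitm6 the direction turned without that array (0.24 with it, -0.07 without). Leaving out single arrays also brought calls by limma, of Pcolce2 without wild-type replicate 2 or 4 (adjusted p = 0.0214 and 0.0454), of Ppp2r2b, Akr1c19 and Asb4 without wild-type replicate 3 (adjusted p = 0.0371, 0.0295 and 0.0355) and of Shisa2 without cKO replicate 2 (adjusted p = 0.0149). A second Asb4 probe had the opposite sign for Foxa2 deletion, 0.32 ± 0.30, against -0.71 ± 0.25 on the main probe. Together 6 of the 10 had an unadjusted p under 0.05, as had 3133 of all 17145 genes.

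Deletion of Foxo1 changed 0 of the 10 by limma, against 0.222% of all genes called. An unadjusted p under 0.05 was reached by 648 of all 17145 genes and by 1 of the 10. That 1 of the 10 was Myl7, at 3.74, 3.61, 4.14 and 4.29 in Foxo1 cKO, against 3.19, 3.34, 3.23 and 3.28 in Foxo1 wild type. The arrays were separate, with cKO higher, as for 5.51% of all genes. The difference was 0.68 ± 0.30 (SE; limma, adjusted p = 1.00). Unc93a was at -3.17, -2.55, -2.79 and -2.79 in Foxo1 cKO, against -2.47, -2.46, -1.95 and -2.38 in Foxo1 wild type, separate with cKO lower, as for 2.58% of all genes. Its difference was -0.51 ± 0.30 (limma, adjusted p = 1.00).

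The effect of Foxo1 deletion was then set against that of Foxa2 deletion. It was lower for Unc93a by -1.80 ± 0.43 on the log2 scale (limma, adjusted p = 0.0349), the only one of the 10 called, against 0.957% of all genes. The call was lost when any of 11 single arrays was left out (adjusted p of 0.0577 to 0.0965), namely Foxo1 cKO replicates 1, 3 and 4, all Foxo1 wild-type replicates, Foxa2 cKO replicates 1, 2 and 3 and Foxa2 wild-type replicate 1, and when only the compared groups were fitted (adjusted p = 0.219).

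The wild types of the 2 lines also differed. Of the 10, 5 were lower in Foxo1 wild type than in Foxa2 wild type by limma, against 8.01% of all genes called lower, and 0 were higher, against 8.51%. Akr1c19 was at 1.25, 1.12, 1.14 and 1.30 in Foxo1 wild type, against 2.79, 2.91, 3.48 and 3.25 in Foxa2 wild type. The groups were separate, by -1.90 ± 0.18 (adjusted p = 1.19e-08). A second Akr1c19 probe gave a smaller difference, -0.84 ± 0.19, also with separate groups. Unc93a was lower by -1.30 ± 0.30 (limma, adjusted p = 0.00392), Asb4 by -1.43 ± 0.25 (limma, adjusted p = 0.00023), Pcolce2 by -1.92 ± 0.41 (limma, adjusted p = 0.0019) and Shisa2 by -0.86 ± 0.29 (limma, adjusted p = 0.0452). A second Asb4 probe gave -0.27 ± 0.30, within its SE. Pcolce2 was lower by -1.17 (limma, adjusted p = 0.000922) without Foxa2 wild-type replicate 1, the array of high 75th percentile. For Shisa2 the call was lost without the same array (-0.64, adjusted p = 0.184) and without any 1 of the Foxo1 wild-type arrays (adjusted p of 0.0666 to 0.111). The calls of Shisa2, Pcolce2 and Asb4 were lost when only these groups were fitted (limma, adjusted p = 0.118, 0.197 and 0.09). Leaving out Foxa2 wild-type replicate 2 brought calls of Ppp2r2b and Uox (limma, adjusted p = 0.0474 and 0.00887), and leaving out replicate 3 of that group brought calls of Ppp2r2b and Ifitm6 (limma, adjusted p = 0.0269 and 0.0293). The line and any batch of its arrays cannot be told apart here.

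**Figure D5:**
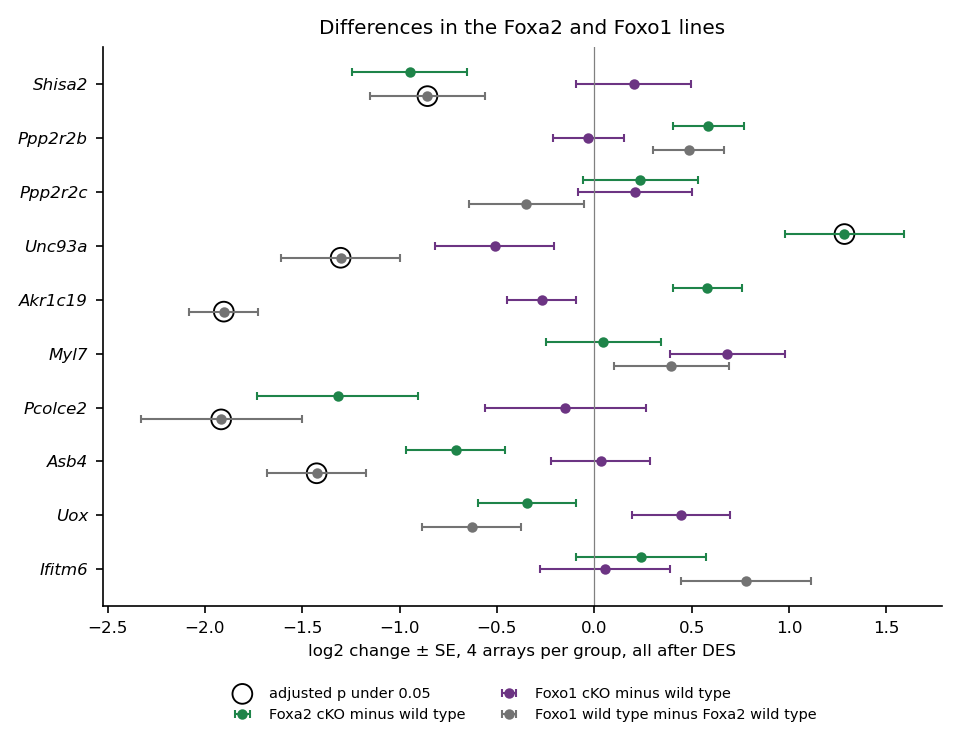
Log2 difference ± SE (x axis) of each of the 10 genes (y axis) under DES for Foxa2 cKO minus wild type (green), Foxo1 cKO minus wild type (purple) and Foxo1 wild type minus Foxa2 wild type (grey), with 4 arrays per group; black rings mark an adjusted p under 0.05. Rings lie on Unc93a for Foxa2 deletion and on 5 genes for the comparison of the wild types, and none lies on Foxo1 deletion.

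In order of level, the groups split the 10 genes into sets. Unc93a and Akr1c19 were highest in Foxa2 cKO (means of 0.27 and 3.69) and Esr1 wild type under DES (-0.27 and 3.50), whose arrays overlapped for both. Both were lower in the Foxo1 line on these probes. Akr1c19 averaged 0.93 ± 0.21 in Foxo1 cKO and 1.20 ± 0.09 in Foxo1 wild type, against 2.75 ± 0.08 in DES-treated Esr1 cKO (SD, n = 4 each). The Foxo1 cKO arrays overlapped those of vehicle-treated Esr1 wild type only through its replicate 4 (0.92), the array of low Xist. A second Akr1c19 probe did not show the contrast with DES-treated Esr1 cKO. It was at 1.38 to 1.91 in Foxo1 cKO and 1.67 to 1.98 in Foxo1 wild type, both overlapping the 1.61 to 1.88 of DES-treated Esr1 cKO. Myl7 ran the other way, with its highest means in Foxo1 cKO (3.94) and Foxo1 wild type (3.26), separate from each other and from the next, Foxa2 cKO (2.91). The Myl7 levels of Foxa2 wild type, 2.25 to 3.53, overlapped those of Foxo1 wild type, 3.19 to 3.34. For Ppp2r2c the 5 DES groups other than Esr1 cKO lay between 3.25 and 3.85 on average, each overlapping its neighbour in the order, and Esr1 cKO followed at 1.79 without overlap. For Uox the same 5 groups averaged 4.77 to 5.42, with DES-treated Esr1 cKO at 1.21.

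The likeness of levels over the 32 arrays was measured by Pearson's r as a description only, since the arrays fall into a vehicle and a DES cluster and share lines. Over the 45 pairs of the 10 genes, r ran from 0.52 to 0.99 with a median of 0.91. Within the 24 DES arrays it ran from -0.54 (Akr1c19 with Myl7) to 0.91 (Ppp2r2c with Uox and Unc93a with Akr1c19), with a median of 0.24. With the second Akr1c19 probe, Unc93a had 0.72. Pcolce2 and Asb4 had 0.87 there. Among all other genes, those most like Uox over the 32 arrays were Tmem213 (0.995), Cldn10 (0.994) and Atp2c2 (0.993). Cldn10, which encodes a claudin of tight junctions, was also first for Ppp2r2c (0.984) and Shisa2 (0.978). It averaged 2.73 ± 0.34 in DES-treated Esr1 cKO, 4.58 ± 0.13 in DES-treated wild type, -1.87 ± 0.13 in cKO after vehicle and -1.83 ± 0.23 in wild type after vehicle (SD, n = 4 each). Myl7 was most like Kcnn4 (0.973), Stc2 (0.973) and Emilin2 (0.971), and Ifitm6 most like Trdn (0.974), Serpina1b (0.968) and Clca1 (0.967). Ppp2r2b was most like Serpina1b (0.961), and Unc93a and Akr1c19 were each other's first (0.953), as were Pcolce2 and Asb4 (0.986). The genes most like the mean of the 10 standardised levels were Brinp3 (0.976), Nmu (0.975), Csf3 (0.975), Rbm20 (0.975) and Fbll1 (0.974).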

How the data were processed

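Uterine RNA of 32 samples was measured on single-colour Agilent arrays, 4 per group. Per the labels, 500 ng of total RNA was labelled with Cy3, and the arrays were read with Feature Extraction 12, per the submitters' processing notes. The authors deposited linear intensities for 45018 probes (1.87 to 922772); their background correction and normalization are not stated in those sources. Groups came from the sample labels. Precision is limited by how many arrays each group has. The 10 genes and all lists were chosen with earlier results of these data known.

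From the deposited intensities, log2 values minus each array's 75th percentile were computed. Probes above the array's 30th percentile on at least 4 arrays were kept (36657). Gene names came from the platform annotation, in which 33653 probes had 1 symbol, 56 several and 11309 none. The brightest kept probe stood for a gene, giving 17145 genes. Where a gene was under the 30th percentile on all arrays of a group, only a bound is given, its distance from that percentile. limma 3.58.1 in R 4.3.3 fitted all 8 groups together (24 residual degrees of freedom), with p-values adjusted by Benjamini-Hochberg over all genes and 0.05 as the threshold; the procedure was tested on simulated data. Named beside the 10 were the deleted genes, up to 3 called genes per family list with the largest DES change in Esr1 wild type, other family genes set beside one of the 10, the 3 genes most correlated with each of the 10 and the 5 most correlated with their mean. Slc2a9, Xist and the markers of uterus were named after their values were seen.

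Same-numbered cKO and wild-type arrays of the Foxo1 line deviated together (correlations of 0.29, 0.38, 0.36 and 0.33), a pairing seen in the data, and blocking on the number changed no call of the 10 there. In the Foxa2 line these correlations were 0.15, 0.46, 0.0022 and 0.06, so only replicate 2 deviated so. In the Esr1 line they lay between -0.11 and 0.10. Alternatives were other scalings, filters and probe rules, array weights, smaller fits, replicate blocks and leaving out arrays.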

Additional observations from a re-analysis of the deposited data

Results flagged for a closer look

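In 5 of the 80 groups of 4 arrays (10 genes in 8 groups), 1 array stood apart from the other 3 by Dixon's criterion, which chance gives in about 1 of 20 groups. Asb4 was at 1.5 in replicate 2 of DES-treated Esr1 cKO, with the others at 0.96 to 0.99. Akr1c19 was at 3.03 in replicate 3 of DES-treated Esr1 wild type, with the others at 3.61 to 3.70. Myl7 was at -0.76 in replicate 4 of vehicle-treated Esr1 wild type, with the others at -2.43 to -2.38. On the same array Shisa2 was at -2.74, with the others at -2.18 to -2.11. Ppp2r2b was at 0.13 in replicate 1 of that group, with the others at 0.53 to 0.58.

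The effect of deletion on Unc93a differed between the lines in the main fit, by -1.80 on the log2 scale (Foxo1 effect minus Foxa2 effect, limma, adjusted p = 0.0349). The call was lost when any of several single arrays was left out, among them Foxa2 wild-type replicate 1 (limma, adjusted p = 0.062). It was also lost when only the compared groups were fitted (limma, adjusted p = 0.219).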

How the results depend on the processing

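The 10 genes stayed higher with DES in both Esr1 genotypes under every alternative run, with a median of 3.47 to 3.77 in cKO and of 4.28 to 4.75 in wild type, and their median cKO minus wild-type difference under DES stayed between -1.10 and -0.91. The limits lie in the Foxa2 and Foxo1 comparisons. Of the 10, limma called 1 for Foxa2 deletion, 0 for Foxo1 deletion, 1 for the Foxo1 minus Foxa2 effect and 5 between the wild types. Array weights gave 4, 0, 3 and 9. Fitting only the compared groups gave 0, 0, 0 and 2. Without both arrays that stood apart, Foxa2 deletion gave 0. With the replicate number as a block it gave 1, and with the block within each line, or with replicates 1 and 2 against 3 and 4 as a block (both chosen after seeing the data), it gave 2. Under the replicate block Shisa2 was no longer called between the wild types (limma, adjusted p = 0.0576) and Ppp2r2b was (limma, adjusted p = 0.0464). Leaving out 1 array gave 0 to 4 for Foxa2 deletion, 0 to 1 for the effect and 4 to 7 between the wild types. The cause was not tested.

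For the family genes, calls were 1 for Foxa2 deletion, 1 for Foxo1 deletion, 0 for the effect, 18 between the wild types, 15 with DES in cKO, 47 with DES in wild type, 24 for the difference of DES effects, 29 between Esr1 genotypes under DES and 5 after vehicle. Array weights gave 19 for Foxa2 deletion, 3 for Foxo1 deletion, 15 for the effect, 48 between the wild types, 34 with DES in cKO, 43 for the difference and 47 between genotypes under DES. Fitting only the compared groups gave 0, 0, 6 between the wild types and 29 with DES in cKO. For Foxa2 deletion, an offset of 16, the mean of probes, median scaling and no probe filter each gave 0, the filter at the array median 2, quantile normalization 4 and leaving both arrays out 6. For the effect, quantile normalization gave 2 and leaving both arrays out 7. After vehicle, the offset gave 3 and the median filter 1. With DES in cKO, leaving both arrays out gave 23. Leaving out 1 array gave 0 to 5 for Foxa2 deletion, 0 to 4 for the effect, 13 to 35 between the wild types, 9 to 13 with DES in cKO and 3 to 5 after vehicle.

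Differences near 0 changed sign. After vehicle (cKO minus wild type), Asb4 gave -0.0087 with the offset and -0.18 with the mean of probes, Ifitm6 -0.0069 with the offset, Uox 0.34 with the mean of probes, Ppp2r2b 0.054 with median scaling and 0.0078 without both arrays, and Shisa2 -0.083 with array weights and -0.086 without both arrays. For Foxo1 deletion, Ppp2r2b gave 0.20 and Asb4 -0.14 with the mean of probes, and Asb4 -0.12 and Ifitm6 -0.094 with median scaling. Ppp2r2c between the wild types gave 0.036 with array weights, and Ppp2r2b for the difference of DES effects 0.025 with the mean of probes. Without both arrays Ifitm6 gave -0.069 for Foxa2 deletion and 0.12 for the effect. Leaving out 1 array gave, after vehicle, -0.019 to 0.10 for Asb4, -0.0071 to 0.24 for Ifitm6, -0.12 to 0.024 for Ppp2r2b and -0.086 to 0.14 for Shisa2. For Foxo1 deletion it gave -0.066 to 0.24 for Asb4, -0.056 to 0.17 for Ifitm6 and -0.19 to 0.077 for Ppp2r2b. For Foxa2 deletion it gave -0.069 to 0.54 for Ifitm6 and -0.16 to 0.27 for Myl7, and for the effect -0.48 to 0.12 for Ifitm6 and -0.25 to 0.14 for Ppp2r2c.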
